A study of Mus musculus with 16 samples.

Results

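Dlg4, Ddn, Shisa9, Cacng3, Camkv and Cnih2 encode proteins of the postsynaptic side of excitatory synapses, and 3 of them, Shisa9, Cacng3 and Cnih2, encode auxiliary proteins of the AMPA receptor. They were taken by name from the table of motor cortex beside a stroke lesion, as 6 of the 263 genes listed there and of 661 listed in the series. That table holds genes the authors selected, and the 6 were chosen by their log2 CPM difference between recovered and non-recovered mice and by their covariation across the same libraries. Both are therefore described here without a test. None of the 6 is among the 417 genes of the table of the opposite hemisphere, and their levels there were not analysed here.

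All animals were C57Bl6 mice that had a stroke, and their movement was then scored on a horizontal rotating beam. RNA came from the ipsilesional primary motor cortex, the side of the lesion, of 3 spontaneously recovered mice (animals 6, 23 and 28) and 5 non-recovered mice (animals 17, 19, 20, 21 and 29). The sources used here do not give sex, age, the stroke model, the time of sampling or any treatment, and the groups used here include no animal without a stroke. Each library is labelled as a separate animal. The totals by which the libraries were scaled lay between 19116419 and 26310885 reads, and the 6 genes had between 1098 and 34321 reads each per library. Values are log2 CPM, the log2 of counts per 1000000 reads. Differences are recovered minus non-recovered group means on this log2 scale, with the standard error (SE) from limma.

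Excitatory synapses in the cortex use glutamate, and most fast transmission runs through AMPA receptors held in the postsynaptic density of dendritic spines. The pore subunits travel with auxiliary proteins that set their gating, their export from the endoplasmic reticulum and their anchoring. The anchoring runs in large part through the scaffold PSD-95, the product of Dlg4, whose PDZ domains bind the tails of transmembrane AMPA receptor regulatory proteins (TARPs). Of 20 marker genes of cortical excitatory neurons, only Calb1 is in the table, so the cell type behind the values could not be checked against its defining markers. Calb1, a calcium-binding protein that some inhibitory neurons also make, had 89.8 CPM in animal 6, 109.8 to 111.5 CPM in the other recovered animals and 110.6 to 137.0 CPM in the non-recovered ones. Its log2 difference was -0.23 ± 0.10 (SE), and -0.13 without animal 6.

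All 6 genes had lower mean levels in the recovered mice, as did 50.2% of all listed genes. The difference ran from 10.2% for Camkv to 17.3% for Ddn, taken from the log2 means. Their median log2 difference was -0.20, beside -0.28 over the 132 listed genes that were lower. Over all 263 listed genes, 132 lower and 131 higher, the median was -0.13. With these counts it is the value of the lower gene nearest 0, and not a shift typical of listed genes. At an unadjusted limma p under 0.05, 4 of the 6 were lower, where 37.3% of all listed genes were called lower at that p. None of the 6 passed a limma adjusted p of 0.05 (0.0574 to 0.0736), while 3 listed genes, or 1.14%, were lower at that threshold. With voom weights, 6 were under the unadjusted p, against 41.8% of listed genes, and 0 passed the adjusted one. In 3 of the 6 every recovered library lay below every non-recovered one, which held for 21.3% of listed genes. As the contrast chose these genes, nothing is read from those counts. In bulk tissue, fewer cells of a type and less RNA per cell cannot be told apart.

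**Figure D1:**
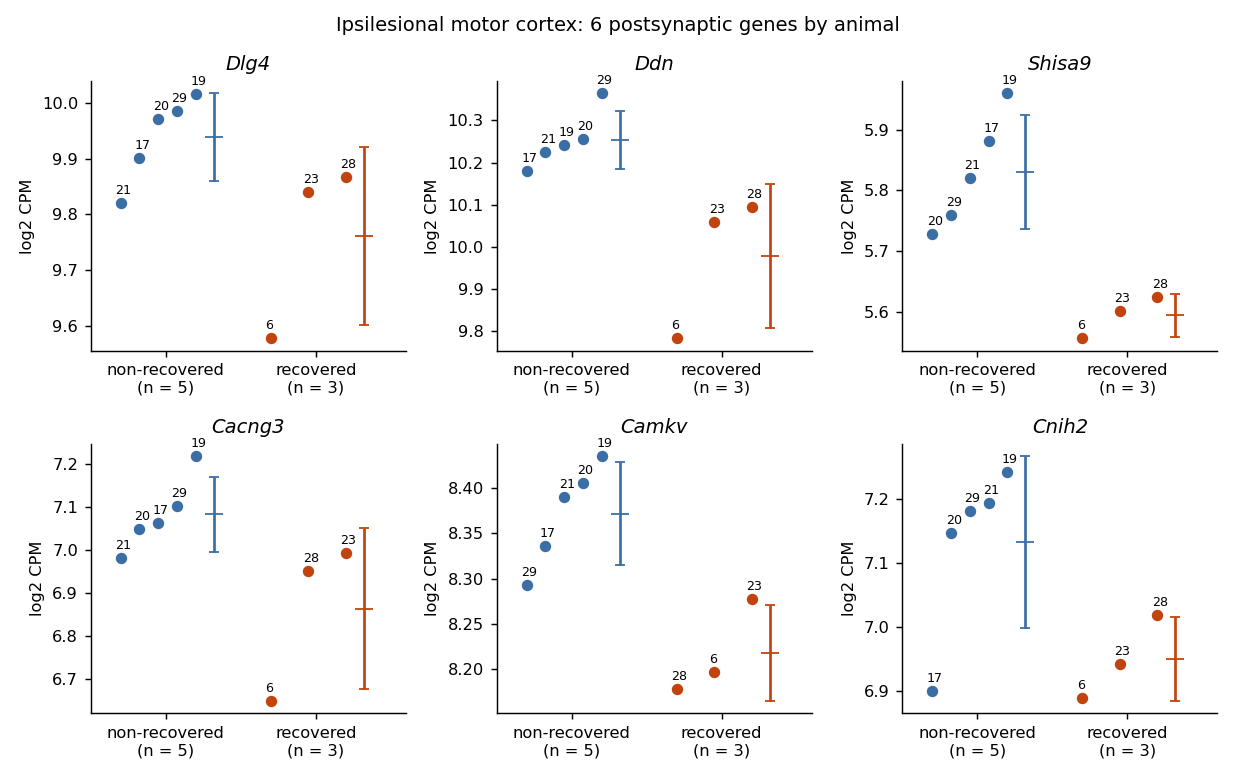
Log2 CPM of each gene (vertical axis, 1 panel per gene) in ipsilesional motor cortex of 5 non-recovered (blue) and 3 recovered (orange) mice, with animal numbers beside the points and the group mean ± SD at the right of each group. Animal 6 is the lowest of all 8 in 5 panels, and the groups are separate in Ddn, Shisa9 and Camkv.

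The scaffold gene Dlg4 lies on chromosome 11 (mm10, 70016942 to 70047522, plus strand). In the recovered animals 6, 23 and 28 it measured 9.58, 9.84 and 9.87 log2 CPM. In the non-recovered animals 17, 19, 20, 21 and 29 it measured 9.90, 10.02, 9.97, 9.82 and 9.99. Animal 6 stood well below the rest, while the other 2 recovered animals lay just above animal 21, so the groups overlapped. The difference was -0.18 ± 0.08 (SE, n = 3 against 5), and -0.09 without animal 6.

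Ddn encodes dendrin, a protein of dendrites and of the postsynaptic density that is also made in kidney podocytes (chromosome 15, 98803777 to 98809490, minus strand). It measured 9.78, 10.06 and 10.09 log2 CPM in the recovered animals 6, 23 and 28. The non-recovered animals 17, 19, 20, 21 and 29 had 10.18, 10.24, 10.25, 10.22 and 10.36. No recovered animal reached the lowest non-recovered one, although the gap between the groups was only 0.09 on the log2 scale. The difference was -0.27 ± 0.08 (SE), and -0.18 without animal 6. An antisense gene, B130046B21Rik, shares exonic bases with Ddn. The sources used here do not say whether reads were counted by strand, so the share of each cannot be told apart.

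Camkv encodes a pseudokinase related to the calcium/calmodulin-dependent kinases, which sits at synaptic membranes (chromosome 9, 107935674 to 107949691, plus strand). Its values were 8.20, 8.28 and 8.18 log2 CPM in the recovered animals 6, 23 and 28. In the non-recovered animals 17, 19, 20, 21 and 29 they were 8.34, 8.44, 8.41, 8.39 and 8.29. The groups were separate by just 0.01 on the log2 scale, between animal 23 and animal 29, and here animal 6 was not the lowest library. The difference of -0.15 ± 0.06 (SE) was the smallest of the 6, with the narrowest spread within groups (pooled SD 0.06), and stood at -0.14 without animal 6.

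Cacng3 encodes TARP gamma-3, which binds AMPA receptors and slows their closing (chromosome 7, 122670492 to 122769393, plus strand). It measured 6.65, 6.99 and 6.95 log2 CPM in the recovered animals 6, 23 and 28. The non-recovered animals 17, 19, 20, 21 and 29 measured 7.06, 7.22, 7.05, 6.98 and 7.10. As with Dlg4, animal 6 was far below and animal 21 was the lowest of the non-recovered animals, level with animal 23. The difference was -0.22 ± 0.09 (SE), and -0.11 without animal 6.

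Shisa9 encodes a transmembrane protein also called CKAMP44, which alters the desensitization and recovery of AMPA receptors (chromosome 16, 11984113 to 12270902, plus strand). The recovered animals 6, 23 and 28 had 5.56, 5.60 and 5.63 log2 CPM. Those of the non-recovered animals 17, 19, 20, 21 and 29 were 5.88, 5.96, 5.73, 5.82 and 5.76. The groups did not overlap, with a gap of 0.10, the widest of the 6, and the recovered animals differed little among themselves (SD 0.03, n = 3). The difference of -0.24 ± 0.07 (SE) was -0.22 without animal 6. Shisa9 had the fewest reads, 1098 to 1549 per library.

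Cnih2 encodes cornichon-2, a small membrane protein that helps AMPA receptors leave the endoplasmic reticulum and stays with them at the surface (chromosome 19, 5092868 to 5098521, minus strand). Recovered animals 6, 23 and 28 measured 6.89, 6.94 and 7.02 log2 CPM. Non-recovered animals 17, 19, 20, 21 and 29 measured 6.90, 7.24, 7.15, 7.19 and 7.18. Animal 17 was as low as the recovered animals, and the 4 others lay above all 3 of them. The difference was -0.18 ± 0.09 (SE), -0.24 without animal 17 and -0.15 without animal 6. Exons of Yif1a, a protein-coding gene on the opposite strand, share bases with those of Cnih2, so unstranded counting would mix their reads.

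**Figure D2:**
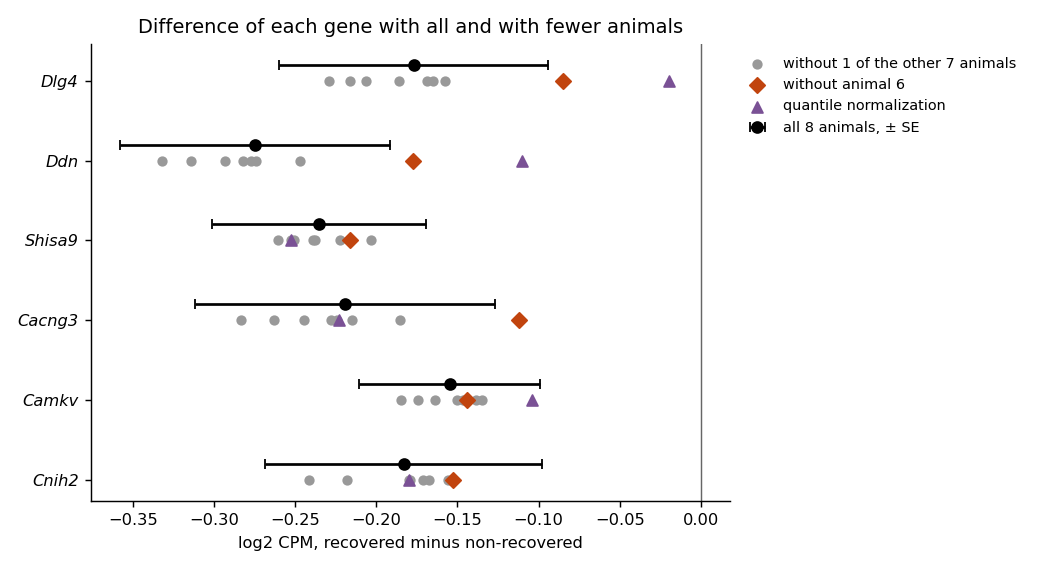
Difference in log2 CPM, recovered minus non-recovered (horizontal axis), for each gene with all 8 animals (black, ± SE), without animal 6 (orange diamonds), without each other animal (grey) and after quantile normalization (purple triangles). Every point lies below 0, and leaving out animal 6 brings Dlg4 to -0.09 and Cacng3 to -0.11.

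Animal 6 thus carried much of the difference in Dlg4, Cacng3 and Ddn, which kept 48.0%, 51.0% and 64.5% of it without that library, and less of it in the other 3. Camkv kept 93.2%, Shisa9 91.9% and Cnih2 83.2%. The grouping of the genes into these trios was made after the values were seen. With each gene centred on its own mean, the average of Dlg4, Ddn and Cacng3 put animals 6, 23 and 28 at -0.34, -0.04 and -0.04. The average of Shisa9, Camkv and Cnih2 put them at -0.16, -0.10 and -0.10. Without animal 6, Ddn and Shisa9 were lower at an unadjusted limma p under 0.05, beside 20.2% of listed genes, and 3 of the 6 had groups that did not overlap, beside 24.7% of listed genes.

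The library of animal 6 also stood apart in Gpnmb, C3 and Itgam, which are markers of microglia, macrophages and complement. Of 26 such markers, 5 are in the table, and none of them had a library with 0 reads, although C3 in animal 28, at -2.95 log2 CPM, came close. Their summed level was 150.6 CPM in animal 6, 11.5 and 12.5 CPM in the other recovered animals and 10.4 to 23.8 CPM in the non-recovered ones. Gpnmb, a glycoprotein of phagocytes, reached 6.50 log2 CPM in animal 6 and 3.19 in animal 21, against 1.12 to 1.59 in the 6 others. C3, the central complement protein, was likewise highest in animals 6 (5.12) and 21 (1.91), and Itgam, an integrin chain of myeloid cells, measured 4.47 in animal 6 and 2.41 to 2.98 in the 7 others. The remaining 2 markers did not single out animal 6. Lyve1, of border macrophages, measured -0.32 in animals 6 and 28, -0.88 in animal 23 and -0.06 to 0.89 in non-recovered mice. Casp1, the inflammatory caspase, measured 1.31 in animal 6, 1.16 in animal 28, 0.94 in animal 23 and 0.38 to 0.91 in non-recovered mice. Animal 21 was the non-recovered animal with the lowest Dlg4 and Cacng3, but not the lowest Ddn, Shisa9, Camkv or Cnih2. The part of these cells in the differences was not tested, and leaving out 1 library does not test it. The library titled animal 6 has a code, SP2.7.1, with another prefix than the other ipsilesional libraries. In the opposite hemisphere that code stands under the title of animal 23, and the ipsilesional code of animal 23 under that of animal 6. Which of these recovered mice the low library came from is thus in doubt, while its group is not.

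The same average over the 6 centred genes was, in the recovered animals 6, 23 and 28, -0.25, -0.07 and -0.07. In the non-recovered animals 17, 19, 20, 21 and 29 it was 0.02, 0.16, 0.07, 0.05 and 0.09. Every recovered animal was below its gene mean in all 6 genes, and each non-recovered animal in at most 2 of them. The group means were -0.13 ± 0.10 (SD, n = 3) and 0.08 ± 0.05 (SD, n = 5), a difference of -0.21. Without animal 6 the recovered mean was -0.07. The direction of these values was fixed by the choice of genes.

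Across the 8 libraries every one of the 15 pairs of genes correlated positively. So did 49.5% of all pairs of listed genes and 99.4% of pairs of genes lower in recovered mice. Among the 15, Pearson r ran from 0.57 to 0.96 (median 0.68) and Spearman rho from 0.55 to 0.90 (median 0.67). All points share their libraries and scaling totals, and the group difference itself enters these values. Among all pairs of listed genes the median r was -0.03, but among pairs of the 132 listed genes that were lower in recovered mice it was 0.60, close to that of the 6. Leaving out, for each pair, the 2 libraries farthest from the median of the first gene lowered the median r to 0.58, with a range of 0.15 to 0.88. The pairs of Dlg4 with Shisa9 and with Camkv then fell to 0.18 and 0.19, and those of Shisa9 and Cacng3 with Cnih2 to 0.15 and 0.18. Ddn with Camkv rose from 0.65 to 0.88 and Ddn with Shisa9 from 0.68 to 0.75, while all other pairs fell. With so few libraries left, a low r does not show that a relation is absent. Leaving out extreme libraries also narrows the range of a gene.

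With each gene's group means removed, the pairs came apart. Dlg4 and Cacng3 still ran together (r = 0.94, rho = 0.88), as did Dlg4 and Ddn (r = 0.85, rho = 0.86) and Ddn and Cacng3 (r = 0.77, rho = 0.60). The median of all 15 pairs was 0.32, beside 0.02 for all pairs of listed genes and 0.06 for pairs of lower genes. It was 0.09 without animal 19, and it turned to -0.11 under quantile normalization. Ddn did not vary with Shisa9 (r = -0.03) or with Camkv (r = -0.08) within groups. Without animal 6 the pair of Dlg4 and Cacng3 stood at r = 0.80 and that of Dlg4 and Ddn at 0.51. Ddn and Cacng3 then dropped to 0.17, and Ddn turned to -0.48 with Shisa9 and -0.49 with Camkv. Dlg4 and Cacng3 were the pair with the highest r with and without group means removed, over 8 libraries and over the 7 without animal 6. The pair was picked as the highest of 15 after the values were seen. Covariation in these libraries helped choose the genes, so nothing is read from its place. With the 2 farthest libraries left out, Ddn and Camkv came first (0.88) and Dlg4 and Cacng3 next (0.83).

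**Figure D3:**
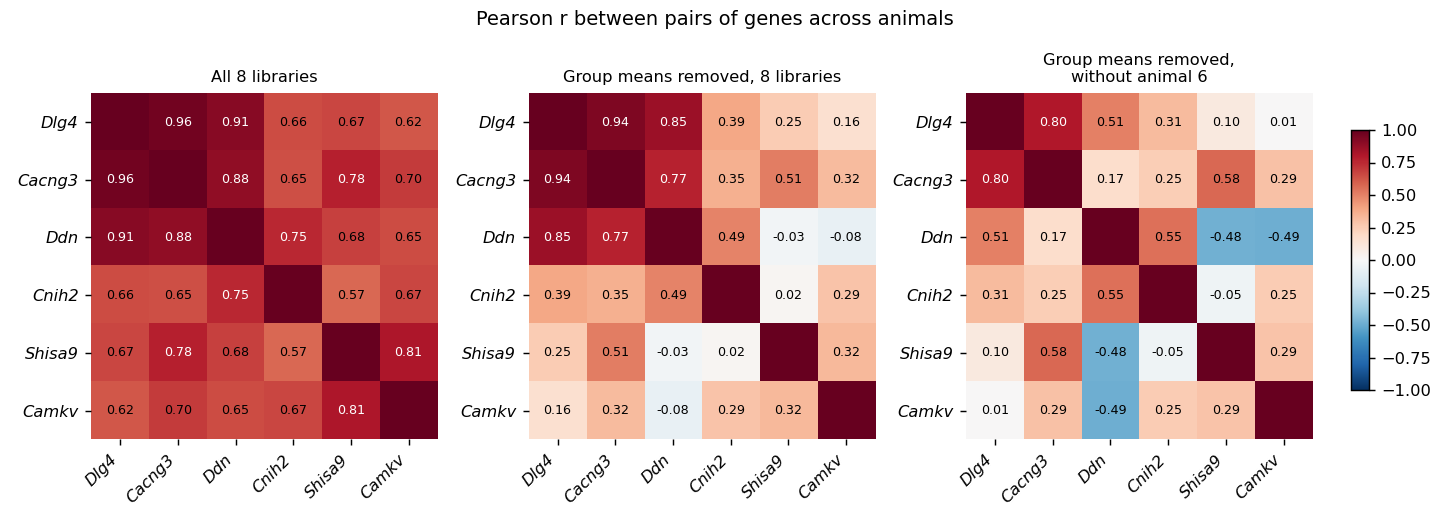
Pearson r for each pair of the 6 genes over all 8 ipsilesional libraries (left), after subtracting each gene's group means (middle), and the same without animal 6 (right), on a colour scale from -1 (blue) to 1 (red). All pairs are above 0 on the left, and Dlg4 with Cacng3 remains at 0.94 and 0.80 in the other panels.

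Compared per length, the order of levels was Ddn, Cnih2, Camkv, Dlg4, Cacng3 and Shisa9. The unit is CPM per kilobase of exonic length, the bases covered by any annotated exon, which overstates the length of a single transcript where a gene has many, such as Dlg4 (13251 bases). In non-recovered mice Ddn had 323.0 ± 15.6 CPM per kb (SD, n = 5) and Shisa9 10.9 ± 0.71. Between them came Cnih2 at 102.8 ± 9.12, Camkv at 88.1 ± 3.48, Dlg4 at 74.1 ± 3.95 and Cacng3 at 48.9 ± 3.00. The recovered means stood in the same order, from 268.0 ± 30.5 (SD, n = 3) for Ddn to 9.20 ± 0.22 for Shisa9. Over all 8 libraries the ranges of Cnih2 and Camkv overlapped, and so did those of Camkv and Dlg4, while the other steps in the order were free of overlap. Within a library, Cnih2 exceeded Camkv in 8 of 8 (by a ratio of 1.02 to 1.27) and Camkv exceeded Dlg4 in 8 of 8 (1.09 to 1.35). Every library was divided by the same lengths, so this agreement does not test the order. Before that division the non-recovered means of these genes ran the other way, with Dlg4 at 982.4, Camkv at 331.4 and Cnih2 at 140.7 CPM. Among AMPA receptor auxiliary genes, the range per kb of Shisa9 lay below that of Cacng3, and that of Cacng3 below that of Cnih2.

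**Figure D4:**
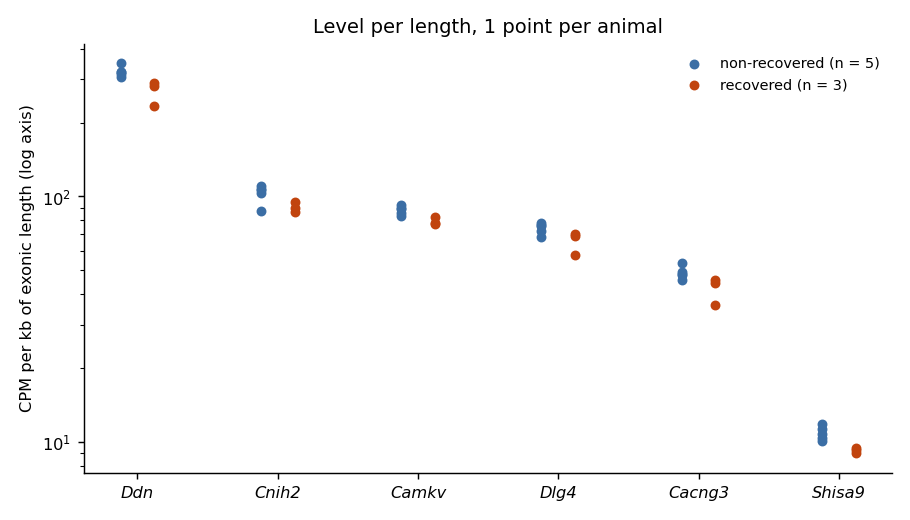
CPM per kilobase of exonic length (vertical, log axis) for each gene, with 1 point per animal in non-recovered (blue, n = 5) and recovered (orange, n = 3) mice. Levels span from 9.20 in recovered mice for Shisa9 to 323.0 in non-recovered mice for Ddn, each a group mean.

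Other genes of the same pathway were looked up in fixed lists. Of 53 postsynaptic scaffold and signalling genes, 6 are in the table, 3 of them among the genes described here. Of the 3 others, Agap2, a GTPase-activating protein also known as PIKE, was lower (-0.17 ± 0.06, limma adjusted p = 0.0600). Camk2g, the gamma chain of the calcium/calmodulin-dependent kinase II, was higher (0.16 ± 0.06, limma adjusted p = 0.0613). Ppp1r9b, the spine protein spinophilin, had a difference of -0.20 ± 0.10 (limma adjusted p = 0.0800), and -0.09 without animal 6. None of the 3 passed an adjusted p of 0.05. At an unadjusted p under 0.05 the list held 1 further gene in each direction, Agap2 lower and Camk2g higher.

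Of 41 AMPA receptor subunit and auxiliary genes, 5 are listed, and no pore subunit gene (Gria1 to Gria4) is among them. Besides Shisa9, Cacng3 and Cnih2, these were Olfm3, a secreted olfactomedin found with AMPA receptors (0.25 ± 0.12, limma adjusted p = 0.0724), and Sacm1l, a phosphoinositide phosphatase (0.14 ± 0.06, adjusted p = 0.0668). Neither passed the adjusted or the unadjusted threshold, and both differences had the opposite sign to those of the 3 auxiliary genes. Of 21 genes of other glutamate receptors, 2 are listed. The kainate receptor subunit gene Grik5 was lower (-0.16 ± 0.07, limma adjusted p = 0.0660), and the metabotropic receptor gene Grm4 was higher (0.24 ± 0.09, adjusted p = 0.0613), each under 0.05 before adjustment alone. Both listed members of the 34 presynaptic genes were higher at an unadjusted p under 0.05, a call that 37.3% of all listed genes met: Syt2, a fast calcium sensor of release (0.36 ± 0.14), and the vesicle protein gene Sv2c (0.29 ± 0.10). All 4 listed genes of the inhibitory neuron list, out of 15, were higher at the unadjusted p as well (beside the same 37.3%). They were Gad1, whose enzyme makes GABA (0.22 ± 0.08), Slc32a1 (0.15 ± 0.06), Kcna1 (0.22 ± 0.09) and the neurofilament gene Nefh (0.31 ± 0.08). Bulk values cannot tell which cells Kcna1 and Nefh came from. The summed level of the 4 ran from 695.1 to 765.3 CPM in recovered and from 582.4 to 645.1 CPM in non-recovered mice. All 5 listed meningeal and vascular fibroblast markers, out of 18, had lower means in recovered mice, as did 50.2% of all listed genes. Of the 5, 2 were lower at the unadjusted p, beside 37.3% of all listed genes. The summed level of the 5 was 353.8 to 644.8 CPM in recovered and 420.7 to 878.0 CPM in non-recovered mice. Animal 6, at 539.4 CPM, was inside both ranges. The part of these cell types in the lower values of the 6 genes was not tested. In the table of the opposite hemisphere, 1 of the 53 postsynaptic genes is listed, Tanc1, a scaffold of the postsynaptic density, which was lower there (-0.19 ± 0.07, limma adjusted p = 0.0590). None of the AMPA receptor or other glutamate receptor genes is listed there.

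The listed genes most like the mean of the 6 across the 8 libraries were Cisd3, a mitochondrial iron-sulfur protein (r = 0.97, rho = 0.98), Agap2 (r = 0.97, rho = 0.98), Fam149b (r = 0.96), the neuronal junctophilin gene Jph4 (r = 0.95) and the F-box gene Fbxl16 (r = 0.95). Those that ran most strongly opposite to it were Ppfia4, which encodes liprin-alpha-4 (r = -0.99, rho = -0.98), Cc2d1b (r = -0.95), the lysosomal membrane protein gene Gpr137b (r = -0.95), the calpain gene Capn1 (r = -0.93) and Fnip2 (r = -0.93). These 10 are the ends of 257 genes ranked on the same libraries, so high values are in part given by the ranking. With group means removed, the highest were Rnf165, an E3 ubiquitin ligase gene (r = 0.97), the diacylglycerol kinase gene Dgkb (r = 0.91), Cisd3 (r = 0.90), Fbxl16 (r = 0.90) and Wipf3 (r = 0.89). The lowest were Ppfia4 (r = -0.97), Cc2d1b (r = -0.97), Cpxm2 (r = -0.92), Gpr137b (r = -0.89) and the nuclear RNA Neat1 (r = -0.89). Cisd3, Fbxl16, Ppfia4, Cc2d1b and Gpr137b were in both rankings. Ppfia4 ran from 5.87 to 6.08 log2 CPM in the 7 other animals and stood at 6.24 in animal 6, and its r without animal 6 was -0.97, or -0.94 with group means removed. Rnf165 kept an r of 0.95 with group means removed and without animal 6, while Neat1 moved to -0.69.

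**Figure D5:**
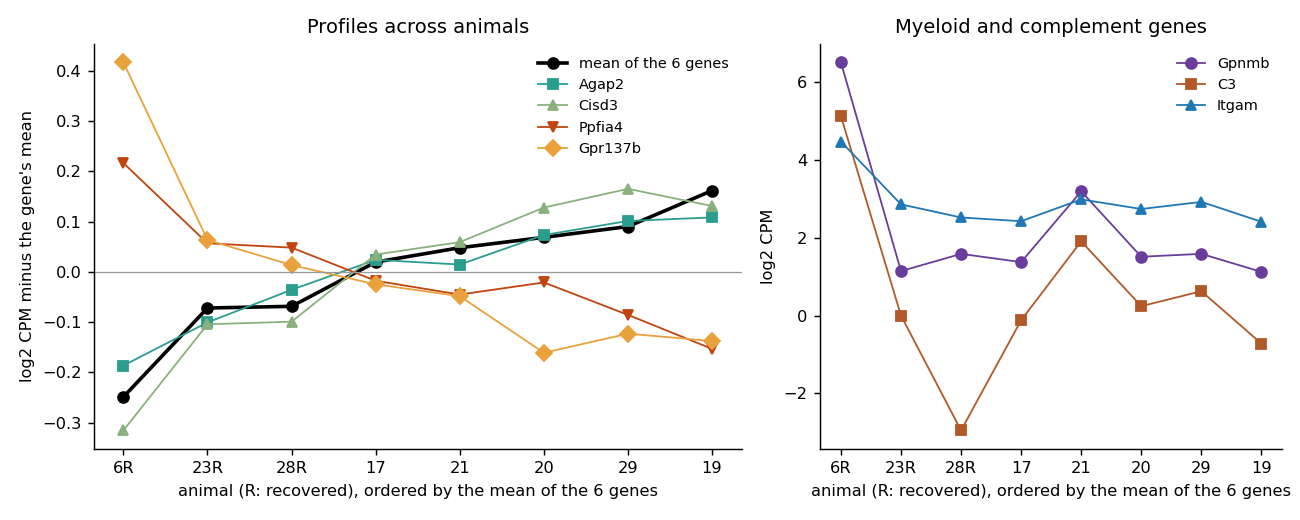
Left, log2 CPM minus the gene's mean for the mean of the 6 genes (black) and for Agap2, Cisd3, Ppfia4 and Gpr137b. Right, log2 CPM of Gpnmb, C3 and Itgam; in both, the horizontal axis orders the 8 animals by the mean of the 6 genes (R marks recovered mice), the lines only join points, and animal 6, at the left end, is lowest in the mean of the 6 genes (-0.25) and highest in Gpnmb (6.50).

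The sequence at the starts of the 6 genes was described where it was available. RefSeq windows of 300 bases, from 250 before to 50 after an annotated start (GRCm38.p6), were matched by symbol for Cacng3, Camkv, Cnih2 and Dlg4, the last with 3 starts. The GC box GGGCGG, searched on both strands, occurred 3 times each in the windows of Cnih2 and Camkv, 2 times in 1 of the 3 Dlg4 windows and not in that of Cacng3. Of all 32851 windows, 35.7% hold it. The cAMP response element TGACGTCA, held by 1.79% of windows, was in none of the 6, and its shorter core TGACG, which the full element contains and 20.8% of windows hold, was in 1 Dlg4 window. TATAAA, found in 13.6% of windows, and CACGTG, in 7.15%, were in none, and CCAAT, in 37.4%, was in that of Cnih2 alone. Their GC content ran from 46.3% to 69.0%, against a median of 52.7% over all windows. The parts that no annotated exon covers are shown for Cnih2 (chr19:5098522-5098771, minus strand, ending at the base before the start) and for the Dlg4 window with both kinds of match (chr11:70023732-70023919, plus strand, ending 62 bases short of the start). The other windows lie wholly or largely in annotated exons. Capitals mark GGGCGG on either strand in Cnih2 and TGACG in Dlg4, whose GC boxes lie outside the stretch shown.
Cnih2: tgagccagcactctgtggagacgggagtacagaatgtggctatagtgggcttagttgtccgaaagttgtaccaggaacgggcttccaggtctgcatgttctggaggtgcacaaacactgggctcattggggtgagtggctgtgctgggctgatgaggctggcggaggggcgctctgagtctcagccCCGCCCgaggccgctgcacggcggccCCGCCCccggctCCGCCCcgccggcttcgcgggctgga
Dlg4: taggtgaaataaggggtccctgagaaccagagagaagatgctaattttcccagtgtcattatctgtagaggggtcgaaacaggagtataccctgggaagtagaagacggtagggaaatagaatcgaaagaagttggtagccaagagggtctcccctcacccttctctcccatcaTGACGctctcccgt
The 3 capital stretches of Cnih2 lie close together in the part nearest its start, and the stretch of Dlg4 holds its match near its end. A match of letters is a description and shows neither binding nor its absence.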

How the data were processed

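Poly(A) RNA of mouse motor cortex was sequenced from stranded TruSeq libraries, per the labels' protocols (RNA integrity numbers 7 to 9). Tools named in the submitters' processing notes, without roles, are STAR 2.5.1b, Trimmomatic 0.38, edgeR and bcl2fastq, with the mm10 build. The sources used here do not give the read counter, its strand setting or the rule of gene selection. The deposited values are log2 CPM of selected genes. Taking off a prior count of 2 (scaled to each library's size) and multiplying by the total returned whole reads (100% of values within 0.01); a total may include a normalization factor.

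Libraries were grouped by title. All 263 ipsilesional genes were fitted with limma 3.58.1 (R 4.3.3) on the deposited log2 values, with no further pseudocount or filter and Benjamini-Hochberg adjustment over the table, which was selected on the same libraries. The code was tested on simulated data. Correlations are Pearson r and Spearman rho across libraries, given without p because covariation helped choose the genes. Members and lists were chosen with earlier results of these data known. Named genes are the 6, listed genes of the 14 fixed lists (here those of synapses, inhibitory and excitatory neurons, meninges and myeloid cells) and the 5 at each end of the 2 rankings of likeness. Gene coordinates and exonic lengths are from GENCODE M21 (GRCm38, the assembly of mm10). Alternatives were median-centred or quantile-normalized libraries, log2(CPM + 1), log2(CPM + 0.1), voom weights, a filter at 10 reads and 0.5 CPM, and each library left out. P-values set a group difference against the spread between animals within groups, with each gene's variance drawn towards that of the listed genes. As those genes were selected on the same libraries, neither unadjusted nor adjusted p-values keep their nominal meaning.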

Additional observations from a re-analysis of the deposited data

Results flagged for a closer look

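Among the 5 non-recovered animals, Cnih2 was 6.90 log2 CPM in animal 17, against 7.15 to 7.24 in the 4 others. Its gap to the nearest of them was 0.72 of the group's whole range, which marked it as far from the rest. Of 7 such checks in the non-recovered group, on the 6 genes and on their mean, this was the only one to do so, and chance marks about 1 in 20. The recovered animals, animal 6 among them, were not checked in this way. The difference of Cnih2 was -0.24 without that animal and -0.18 with it.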

How the results depend on the processing

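All 84 member differences under the alternatives stayed below 0, and 82 of them moved by less than the gene's spread within groups. The exceptions came with quantile normalization, where Dlg4 stood at -0.020 and Ddn at -0.11. The same setting brought the median pairwise r to 0.44, and with group means removed to -0.11, from 0.32; the cause was not tested, and Dlg4 and Ddn rank 9 and 5 of 263 by level. Leaving out 1 animal gave differences of -0.23 to -0.09 for Dlg4, -0.33 to -0.18 for Ddn, -0.26 to -0.20 for Shisa9, -0.28 to -0.11 for Cacng3, -0.18 to -0.14 for Camkv and -0.24 to -0.15 for Cnih2. The mean of the 6 ran from -0.24 to -0.15, and all 6 stayed lower each time. The median pairwise r ran from 0.56 (without animal 6) to 0.81 (without animal 17), and with group means removed from 0.09 (without animal 19) to 0.56 (without animal 17). No paired analysis was possible because the groups compared share no animal number, and the contralesional table, though fitted, lists no member, so it gave no value for them under any setting. Depth limits Shisa9 the most: at its fewest reads, 1098, the counting error alone is 3.02%, against 0.69% for Ddn.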
